A study of Mus musculus with 4 samples.

Results

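Ephrins and their Eph receptors were examined in RNA-seq of mouse primary liver sinusoidal endothelial cells (LSECs), the fenestrated endothelium of the liver capillaries. The 8 genes described were chosen by symbol: the ligands *Efnb1*, *Efnb2* and *Efna1* and the receptors *Ephb2*, *Ephb3*, *Ephb4*, *Epha2* and *Epha4*. They are 8 of 18373 genes in the table, and all 8 were among the 13628 genes that passed the filter on low counts. The study asked what the long noncoding RNA *Airn* does in LSEC differentiation, and RNA interference against *Airn* was compared with a control siRNA in 2 libraries per group.

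All cells came from livers of 8-week-old Balb/c mice, were isolated by enzymatic perfusion (pronase and collagenase in the labels, collagenase IV in the methods), and were grown on collagen for 24 h before transfection. The methods add a Nycodenz density gradient and anti-CD146 magnetic beads, which select endothelial cells. NC libraries came from cells given the control siRNA and siAirn libraries from cells given siRNA against *Airn*, in both cases for 48 h, and the labels place all of them at day 3. The labels call the libraries of a group biological replicates without saying whether they came from separate animals or cultures, so p-values measure the spread between these libraries. Which siAirn sequence each library received was not settled from the labels and methods. Library totals ran from 17308382 to 18371959 estimated counts, and 3 counts, the limit that a count of 0 allows, corresponded to 0.166 to 0.175 CPM, counts scaled to library size. *Airn* itself was at 7 and 3 counts in NC and at 11 and 9 counts in siAirn, a ratio of 1.97 after scaling to library size (exact binomial 95% interval 0.88 to 4.71), so the targeted RNA was not lower in the libraries labelled siAirn. Every direction given for siAirn is therefore that of the libraries labelled siAirn.

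Eph receptors are receptor tyrosine kinases, and both they and the ephrins are held in the cell membrane, so they signal where cells touch. Ephrin-A ligands are anchored by a lipid and bind mainly EphA receptors, whereas ephrin-B ligands span the membrane and bind mainly EphB receptors; EphA4 binds both classes. Signals run forward into the cell with the receptor and in reverse into the cell with the ephrin. In blood vessels ephrin-B2 marks arterial endothelium and EphB4 venous endothelium, and the pair is needed for vessel remodelling.

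Of the 8 genes, *Ephb4* fell and *Efnb2* rose in siAirn, and the other 6 did not pass an adjusted p of 0.05 in edgeR's quasi-likelihood test. The 2 calls among 8 genes stand against 16.8% of all genes tested in either direction, with 8.27% called higher and 8.56% called lower. The groups did not overlap in CPM for 5 of the 8 genes, 3 lower and 2 higher in siAirn, against 62.7% of all genes tested, so a lack of overlap by itself was as common as in the table at large. By the threshold of the study's methods, a fold change over 1.4 with an unadjusted p under 0.05, 2 of the 8 genes passed (*Ephb4* and *Epha4*), against 9.96% of all genes tested; the count was 1 with DESeq2 and 0 with limma on log2(FPKM + 1) or once GC content and length were corrected for. The median log2 fold change was -0.07 over the 8 genes and 0.001 over all genes tested.

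Gene levels were compared with each other in FPKM, which divides by transcript length. *Epha2* and *Ephb4* were the most abundant, with means over the 4 libraries of 84.6 and 83.8 FPKM. The order of this pair differed between the groups. In both NC libraries *Ephb4* was above *Epha2* (98.2 and 96.99 against 89.15 and 80.56 FPKM). In both siAirn libraries *Ephb4* was below *Epha2* (71.19 and 68.75 against 84.49 and 84.26 FPKM). *Efna1* followed at 41.2 FPKM, then *Efnb1* at 14.9 and *Efnb2* at 11.4 FPKM. The ranges of *Efnb1* and *Efnb2* over the libraries overlapped, although *Efnb1* was the higher of the pair in each library. *Epha4* at 1.01 FPKM and *Ephb3* at 0.56 FPKM also had overlapping ranges, and *Ephb2* was lowest at 0.07 FPKM. One receptor and one ligand thus made up most of the A class: *Epha2* held a mean of 96.5% of the summed EphA FPKM in NC and 94.6% in siAirn, and *Efna1* held 89.6% and 83.7% of the summed ephrin-A FPKM. In the B class *Ephb4* held 99.1% and 98.6% of the summed EphB FPKM.

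**Figure D1:**
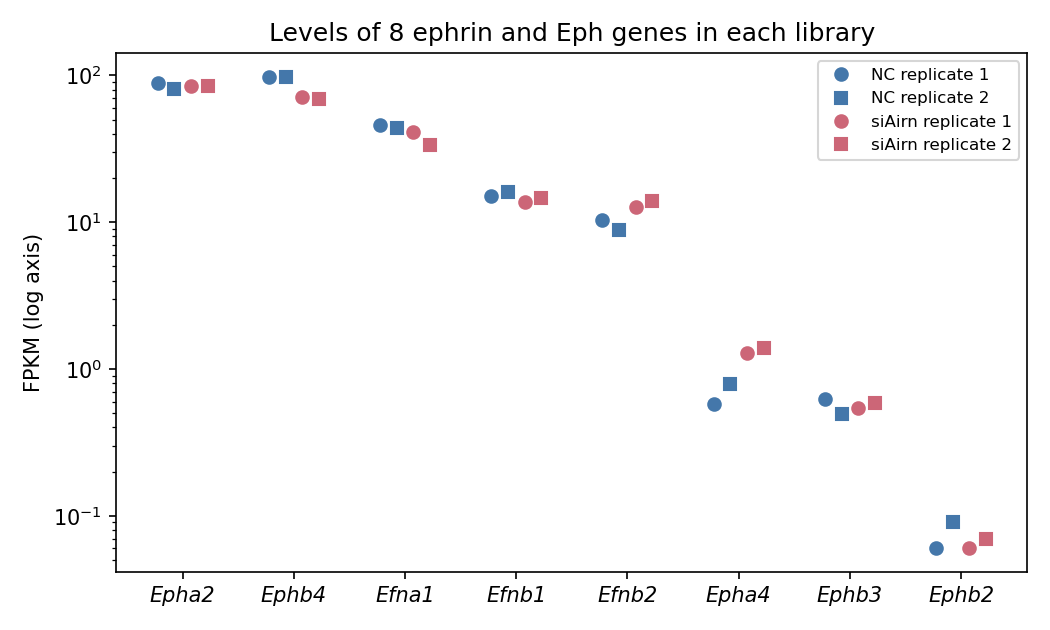
Level of each of the 8 genes in each library, in FPKM on a log axis, ordered by the mean over libraries; circles are replicate 1 and squares replicate 2, blue for NC and red for siAirn. The genes span from 0.07 FPKM for *Ephb2* to 84.6 FPKM for *Epha2*, and the NC and siAirn points are clearly apart for *Ephb4*.

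The 2 genes that changed are printed here with the 250 bases before their transcription start, because the study dealt with KLF2, a Krüppel-like transcription factor of endothelium, and because *Efnb2* is a known target of Notch signalling. Capitals mark CACCC, the core bound by Krüppel-like factors, on either strand (GGGTG when it lies on the other strand). The sequences are from RefSeq on GRCm38.p6, 5′ to 3′ on the strand of the gene, at chr5:137349859-137350108 (plus strand) for *Ephb4* and chr8:8661243-8661492 (minus strand) for *Efnb2*.
Ephb4: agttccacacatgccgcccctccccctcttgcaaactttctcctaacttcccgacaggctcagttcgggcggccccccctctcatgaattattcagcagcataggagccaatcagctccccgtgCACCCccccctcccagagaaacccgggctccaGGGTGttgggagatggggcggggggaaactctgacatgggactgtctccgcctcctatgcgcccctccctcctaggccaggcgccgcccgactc
Efnb2: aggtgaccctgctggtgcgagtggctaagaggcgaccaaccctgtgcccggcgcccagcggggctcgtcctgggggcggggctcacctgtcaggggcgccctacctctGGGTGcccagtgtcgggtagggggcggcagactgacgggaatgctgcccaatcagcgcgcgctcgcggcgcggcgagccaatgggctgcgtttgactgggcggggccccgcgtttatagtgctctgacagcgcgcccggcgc
CACCC occurred 2 times in the *Ephb4* window and 1 time in the *Efnb2* window, and 52.0% of 32851 promoter windows of this length held it on at least 1 strand. TGGGAA, the core bound by the Notch factor RBPJ (TTCCCA on the other strand), was in neither window and in 21.6% of all windows. Among the 9 windows of the 8 genes, each held CACCC, and TGGGAA was in those of *Efnb1* and *Epha4*. These matches describe the letters of the windows and say nothing about binding.

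*Ephb4*, the receptor of ephrin-B2 and the main EphB receptor of these cells, was lower in siAirn. In the GENCODE M21 annotation of GRCm38 the gene lies on chromosome 5 from 137350109 to 137378669, and its ID in the table is 13846. It had 419 and 415 CPM in the NC libraries and 295 and 288 CPM in the siAirn libraries. Both siAirn libraries were below both NC libraries, and the gap was many times the difference within either pair. The log2 fold change was -0.52 (SE 0.058, adjusted p = 0.00600), or 0.698 of the NC level. In FPKM the gene went from 97.6 ± 0.856 (SD, n = 2) to 70.0 ± 1.73 (SD, n = 2).

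*Efnb2*, the ephrin-B ligand that marks arterial endothelium, was higher in siAirn. The gene lies on chromosome 8 from 8617434 to 8661242 on the minus strand, with ID 13642. It had 44.4 and 38.6 CPM in NC and 54.2 and 59.9 CPM in siAirn. The groups did not overlap, and the members of each pair lay closer to each other than the groups did. The log2 fold change was 0.46 (SE 0.0945, adjusted p = 0.0227), a rise of 1.38-fold that stays under the fold change of 1.4 set in the study's methods. *Efnb1*, the other ephrin-B ligand with more than a trace of reads, had 49.4 and 52.8 CPM in NC and 43.6 and 47.3 CPM in siAirn. Its log2 fold change was -0.17 (SE 0.0795, adjusted p = 0.184), so its difference did not pass the test although the groups did not overlap.

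Leaving out a control library ended both calls. Without NC replicate 1 the adjusted p was 0.0653 for *Ephb4* and 0.0776 for *Efnb2*, and without NC replicate 2 it was 0.0849 and 0.149; the log2 fold changes over all 4 fits with 1 library left out ran from -0.54 to -0.50 for *Ephb4* and from 0.36 to 0.56 for *Efnb2*. In those fits the lone NC library is assumed to vary like the siAirn pair, and over all genes 40 and 0 passed, against 2294 with all 4 libraries. At the study's threshold, which uses the unadjusted p, 1228 and 1223 genes passed in those fits.

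Set side by side, the ligand and its receptor changed in opposite directions, and their levels came closer to each other. The ratio of *Efnb2* to *Ephb4* in FPKM was 0.105 and 0.0906 in NC and 0.179 and 0.202 in siAirn. The mean went from 0.0980 ± 0.0104 (SD, n = 2) to 0.191 ± 0.0164 (SD, n = 2), a factor of 1.95, and *Ephb4* stayed the more abundant of the pair in each library. The 2 against 2 libraries cannot give a two-sided exact permutation p under 0.333, and this is the p that the ratio had. The ratio of *Efnb2* to *Efnb1* went from 0.686 and 0.547 to 0.927 and 0.944, so the ephrin-B ligands came near to equal levels in siAirn. Summed over the class, ephrin-B FPKM differed little, with 25.7 and 25.2 in NC and 26.8 and 28.9 in siAirn, whereas summed EphB FPKM was 99.2 and 97.7 in NC and 72.2 and 69.7 in siAirn.

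**Figure D2:**
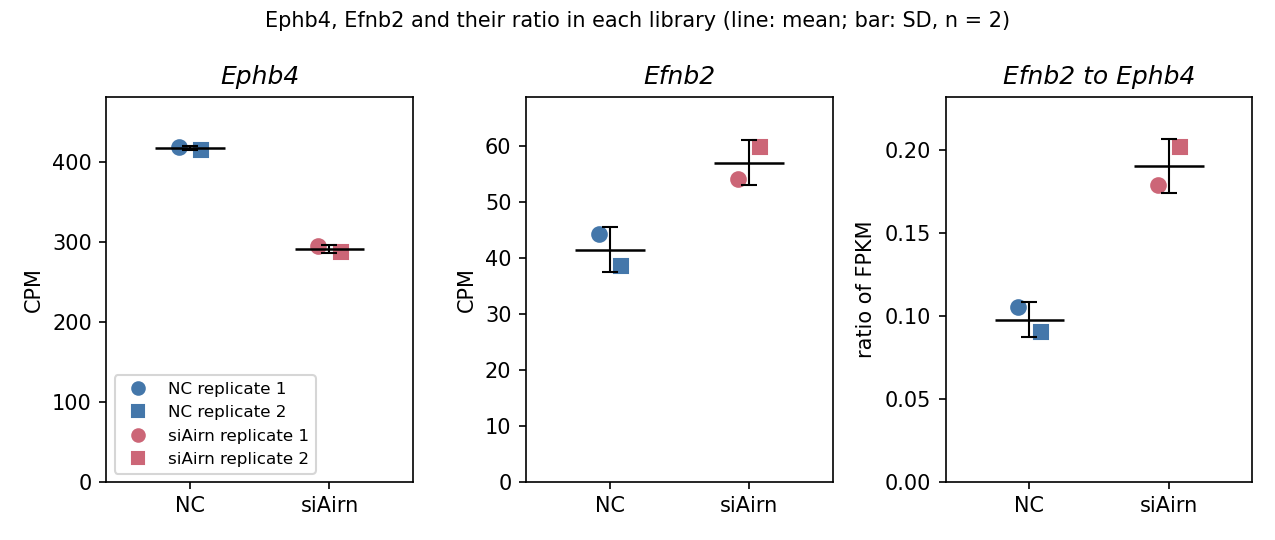
*Ephb4* and *Efnb2* in CPM and the ratio of *Efnb2* to *Ephb4* in FPKM, for each library (circle, replicate 1; square, replicate 2); horizontal lines are group means and bars the SD of 2 libraries. *Ephb4* sits at 419 and 415 CPM in NC and at 295 and 288 CPM in siAirn, *Efnb2* goes the other way, and the ratio rises from 0.0980 to 0.191.

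The other EphB receptors among the 8 genes had few counts. *Ephb3* (ID 13845), a receptor best known from gut epithelium and axon guidance, was covered by 41 and 36 counts in NC libraries and by 38 and 42 in siAirn libraries. After scaling, siAirn had 1.02 times the NC counts (95% interval 0.739 to 1.42, exact binomial, for counting error only), and the adjusted p was 0.952. *Ephb2* (ID 13844), with roles in synapses and in the gut, was covered by 12 and 17 counts in NC libraries and by 12 and 14 in siAirn libraries, a ratio of 0.883 (0.5 to 1.55, adjusted p = 0.805). For both genes the groups overlapped. Counts this low cannot exclude a change within these intervals, which leave out the variation between libraries.

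In the A class the abundant receptor and its ligand did not pass the test. *Epha2* (ID 13836), an EphA receptor of endothelium and epithelium that binds ephrin-A1, had 306 and 277 CPM in NC and 296 and 296 CPM in siAirn. Both siAirn values lay between the NC values, with a log2 fold change of 0.02 (SE 0.0694, adjusted p = 0.864). *Efna1* (ID 13636), a ligand that inflammatory cytokines induce in endothelium, had 63.9 and 60.3 CPM in NC and 55.0 and 45.3 CPM in siAirn. The groups did not overlap and the siAirn libraries differed more from each other than the NC libraries did; the log2 fold change was -0.31 (SE 0.101, adjusted p = 0.0793). *Efna1* passed in edgeR's likelihood-ratio test (adjusted p = 0.0393) and without siAirn replicate 1 (log2 fold change -0.45, adjusted p = 0.0116), whereas without siAirn replicate 2 its log2 fold change was -0.18. After a correction for GC content and length its log2 fold change was -0.13 (adjusted p = 0.490). The ratio of *Efna1* to *Epha2* in FPKM was 0.519 and 0.541 in NC and 0.488 and 0.398 in siAirn.

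*Epha4* (ID 13838), the receptor that binds ephrins of both classes, was past the study's threshold without an adjusted p under 0.05. It had 2.01 and 2.55 CPM in NC and 3.24 and 3.87 CPM in siAirn, from 34.5 and 46.2 estimated counts in NC and 58.6 and 68.5 in siAirn. Both siAirn libraries were above both NC libraries, with a log2 fold change of 0.66 (SE 0.261, adjusted p = 0.128). The size of the difference depended on the unit, 1.58-fold in counts and 1.95-fold in FPKM. FPKM divides by a length, and the length implied by the table was 3433 and 3182 bases in NC and 2556 and 2829 bases in siAirn for this gene, which has 7 transcripts in GENCODE M21.

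**Figure D3:**
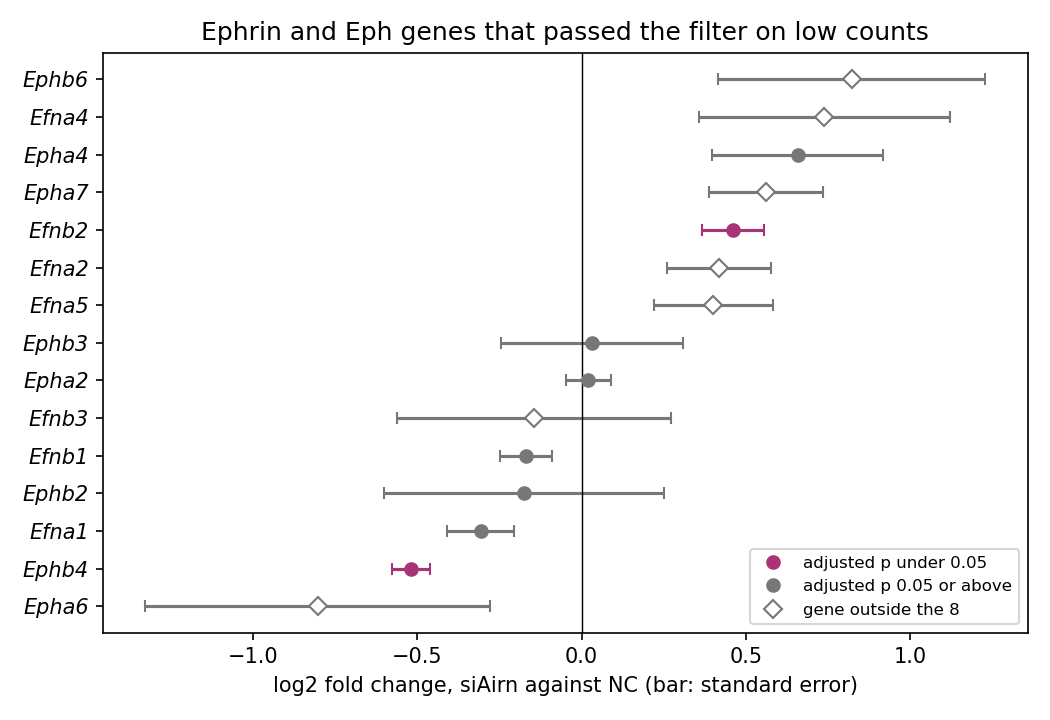
Log2 fold change of siAirn against NC, with its standard error from edgeR, for the 15 ephrin and Eph genes that passed the filter on low counts; filled circles are the 8 genes, open diamonds other genes of the family, and purple marks an adjusted p under 0.05. *Efnb2* at 0.46 and *Ephb4* at -0.52 are the purple points, and genes with few counts, such as *Epha6* and *Ephb6*, have wide bars.

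Of 14 other ephrin and Eph genes, 13 were in the table and 7 passed the filter, with none called by edgeR's quasi-likelihood test; 2 of the 7 had an unadjusted p under 0.05, DESeq2 (which gave no adjusted p for 4 of the 7) and limma (run on the 3 of the 7 with a mean of at least 1 FPKM) called 0, and edgeR's likelihood-ratio test called 1. The nearest was *Epha7*, a receptor with roles in the developing nervous system, at 13.1 and 14.9 CPM in NC and 17.2 and 24.3 CPM in siAirn (log2 fold change 0.56, SE 0.174, adjusted p = 0.0689). With 1.48-fold and an unadjusted p of 0.0148 in that test, *Epha7* was past the study's threshold. It passed in the likelihood-ratio test (adjusted p = 0.0208) and with the replicate block (adjusted p = 0.00242). Its log2 fold change was 0.31 after the GC content and length correction, 0.79 without siAirn replicate 1 and 0.29 without siAirn replicate 2. The ligands *Efna2* and *Efna5* had mean levels of 2.77 and 1.76 FPKM in NC and 3.81 and 2.39 FPKM in siAirn, with adjusted p of 0.116 and 0.170. *Efna4* counts were 15 and 12 in NC libraries and 24 and 22 in siAirn libraries (adjusted p = 0.221), and *Ephb6*, a receptor without kinase activity, had 15 and 11 against 27 and 20 counts (adjusted p = 0.204). *Epha6* (log2 fold change -0.80, adjusted p = 0.323) and *Efnb3* (-0.15, adjusted p = 0.837) had at most 21 counts in each library. With 1 library left out the log2 fold change of *Epha6* ran from -1.39 to -0.38. *Efna3*, *Epha1*, *Epha3*, *Epha8* and *Ephb1* had at most 7 counts in a library and *Epha5* had 0 in all 4, and *Epha10* was not analysed here. *Efna1*, *Efna3* and *Efna4* are neighbours on chromosome 3, and 10.5% of the exonic bases of *Efna4* lie under a gene on the other strand, whose reads cannot be told apart unless strand was used in counting, which the sources used here do not give. Among the 8 genes such overlap was found for *Ephb4*, with 0.711% of its exonic bases under *Zan* on the other strand, and none of the 8 shares over 0.258% of its 50-base words with another gene.

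Among genes that carry the signal forward from Eph receptors, *Cbl* and *Crk* were higher and *Ptpn1* lower in siAirn. Of 29 listed symbols 28 were in the table and 26 were tested, and 3 rose, 1 fell and 22 did not pass, with a median log2 fold change of 0.11; 4 calls of 26 are near the 16.8% called over all genes. The largest rise was that of *Cbl*, a ubiquitin ligase that sends activated receptor tyrosine kinases for degradation, with 49.2 and 50.3 CPM in NC and 76.8 and 83.5 CPM in siAirn (log2 fold change 0.69, adjusted p = 0.00516). The adaptor *Crk*, which had the most counts of the list, rose by 0.26 on the log2 scale (adjusted p = 0.0286). *Ptpn1*, a tyrosine phosphatase, fell by 0.26 (adjusted p = 0.0356). *Inppl1*, which encodes the lipid phosphatase SHIP2 that binds EphA2, had a log2 fold change of 0.08 (adjusted p = 0.421).

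On the side of the ephrins, 12 of 15 listed genes of ephrin-B reverse signalling and of ephrin shedding were tested, and 2 rose, 3 fell and 7 did not pass (median log2 fold change -0.08), beside 8.27% of all genes called higher and 8.56% called lower. *Adam10*, the membrane protease that cuts ephrins, had 134 and 135 CPM in NC and 99.2 and 91.1 CPM in siAirn, and fell by 0.50 on the log2 scale (adjusted p = 0.00854). *Dab2*, an endocytic adaptor, fell by 0.52 (adjusted p = 0.0116) from 374 and 349 CPM to 268 and 235 CPM. *Rgs3*, a regulator of G-protein signalling with a form that binds ephrin-B, fell by 0.26 (adjusted p = 0.0404). The polarity kinase *Prkci* rose by 0.35 (adjusted p = 0.0174) and *Pdzrn3*, a ubiquitin ligase with PDZ domains, by 0.55 (adjusted p = 0.0286). *Sdcbp*, the PDZ adaptor syntenin and the gene of the list with the most counts, had 444 and 443 CPM in NC and 429 and 435 CPM in siAirn (log2 fold change -0.04, adjusted p = 0.683). Counts of calls in both lists changed with the analysis: limma on FPKM called 3 genes of the reverse list, without either NC library 0 genes of either list passed, the correction for GC content and length left 2 genes of the forward and 3 of the reverse list, without siAirn replicate 1 8 genes of the forward list passed, and without siAirn replicate 2 1 gene of the forward and 2 of the reverse list passed.

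Since *Efnb2* and *Ephb4* mark arterial and venous endothelium, other genes of those identities were counted without them. Of 12 arterial genes tested, 1 rose, 1 fell and 10 did not pass, with a median log2 fold change of -0.09, and 2 calls of 12 are near the 16.8% called over all genes. *Jag1*, a Notch ligand, rose from 24.1 and 23.0 CPM to 33.1 and 34.9 CPM (log2 fold change 0.53, adjusted p = 0.0126), and *Acvrl1*, a receptor of bone morphogenetic proteins, fell by 0.62 (adjusted p = 0.0112). *Notch1* and *Nrp1*, with the most counts, had log2 fold changes of 0.21 (adjusted p = 0.0686) and 0.13 (adjusted p = 0.456). Of 8 venous genes tested, none rose, 3 fell and 5 did not pass, with a median of -0.37, beside 8.56% of all genes called lower. The 3 that fell were *Ackr1*, a chemokine-binding receptor of venules (from 68.6 and 103 CPM to 36.7 and 49.3 CPM, adjusted p = 0.0230), *Flt4*, the receptor VEGFR3 (log2 fold change -0.58, adjusted p = 0.00683), and *Selp*, which encodes P-selectin (-0.57, adjusted p = 0.00614). *Flt4* is also in the list of LSEC markers, and *Emcn* of the venous list is also in that of general endothelial markers. *Nr2f2*, which encodes the venous factor COUP-TFII, had a log2 fold change of -0.06 (adjusted p = 0.656), and *Nrp2* and *Emcn*, with the most counts of the list, had 0.09 (adjusted p = 0.371) and -0.29 (adjusted p = 0.0961). Without NC replicate 1 or NC replicate 2 no gene of either list passed.

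Markers of LSECs, endothelium, macrophages and stellate cells moved between the groups, as *Ephb4* and *Efnb2* did; their counts stand beside 8.27% of all genes called higher and 8.56% called lower. The libraries held the defining LSEC markers, with *Stab2*, *Lyve1* and *Oit3* at 44.4 FPKM or more in each library, and no marker of any list was at 0 in all 4. Of 9 LSEC markers 8 fell (median log2 fold change -0.58), and their summed level was 1178 to 1214 FPKM in NC and 731 to 804 FPKM in siAirn. Of 8 general endothelial markers 5 fell (median -0.49), from sums of 2623 and 2733 FPKM to 1790 and 2069 FPKM. Macrophage markers fell for 6 of 10 (sums of 183 and 230 FPKM in NC, 122 and 147 FPKM in siAirn). Stellate cell markers rose for 4 of 11 (461 and 554 against 587 and 746 FPKM). Of 7 hepatocyte markers 1 rose (265 and 343 against 394 and 506 FPKM), a single call beside the 8.27% called higher. The median log2 fold changes of these 3 lists were -0.74, 0.41 and 0.50. Fitted changes were negative for 10 of 10 macrophage markers, and positive for 11 of 11 stellate and 6 of 7 hepatocyte markers. The few cholangiocyte, lymphocyte and smooth muscle markers tested, 5, 2 and 3, gave no call by edgeR's quasi-likelihood test, with 1 unadjusted p under 0.05 in each list. In bulk RNA fewer cells of a type and less RNA per cell cannot be told apart.

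Set against these sums, a scale chosen after the values were seen, *Ephb4* and *Efnb2* differed. *Ephb4* per 1000 FPKM of the endothelial sum was 35.9 and 37.0 in NC and 34.4 and 38.4 in siAirn, so the groups overlapped and the ratio of means was 0.999. That sum was mostly *Eng*, *Cdh5* and *Pecam1* (means of 859, 631 and 497 FPKM in NC), with log2 fold changes of -0.67, -0.58 and -0.53. The 3 markers of the list that were not called, *Emcn*, *Tek* and *Kdr*, had -0.29, -0.05 and 0.02. The ratio thus depends on which markers dominate the sum. Against the LSEC sum *Ephb4* was 1.12 times its NC value, with no overlap, and against the macrophage sum 1.09 times, with overlap. Against the stellate and hepatocyte sums it was 0.55 and 0.484 of its NC value, again with no overlap. The hepatocyte sum was almost all *Alb*, at 253 and 324 FPKM in NC and 371 and 468 FPKM in siAirn. A ratio to that sum is therefore close to a ratio to 1 transcript. *Efnb2* per 1000 FPKM of the endothelial sum went from 3.78 and 3.35 to 6.16 and 7.77, a ratio of 1.95. Against the stellate sum *Efnb2* had 22.4 and 15.9 in NC and 21.7 and 18.6 in siAirn, which overlap, and against the hepatocyte sum the groups overlapped too (ratio 0.924). *Epha2*, whose groups overlapped in CPM, was 1.39 times its NC value against the endothelial sum. The isolation used a density gradient and anti-CD146 beads, and the part that the makeup of the cultures has in these values was not tested.

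**Figure D4:**
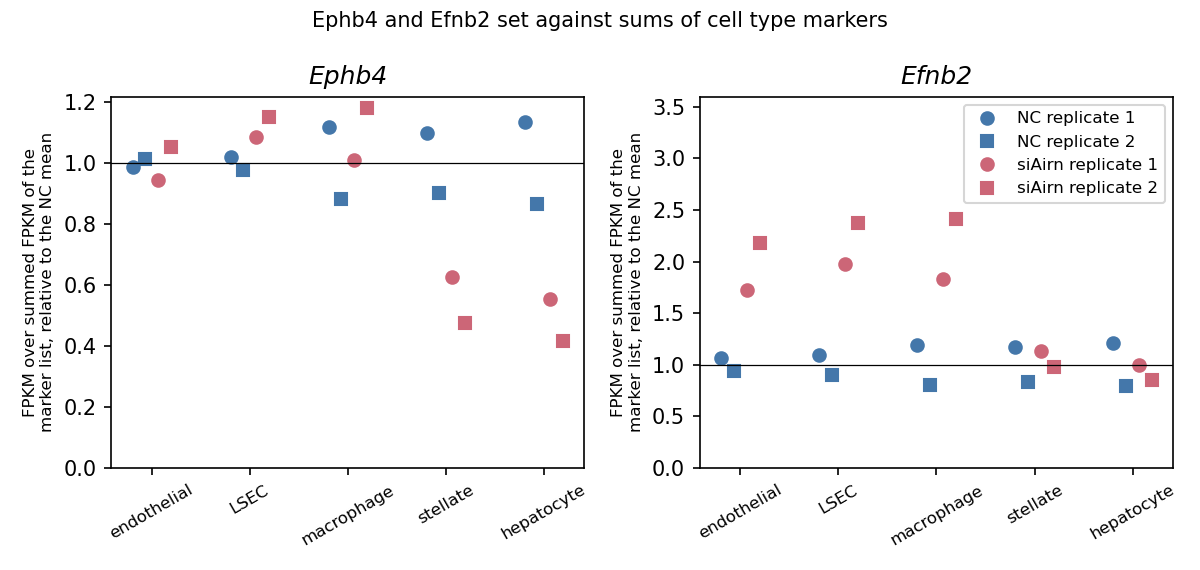
*Ephb4* (left) and *Efnb2* (right) in FPKM divided by the summed FPKM of 5 lists of cell type markers, each relative to its NC mean (line at 1), per library. *Ephb4* stays near 1 against the endothelial sum with a ratio of group means of 0.999, whereas *Efnb2* is above both NC points against the endothelial, LSEC and macrophage sums and overlaps them against the stellate and hepatocyte sums.

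The genes with the pattern over the 4 libraries most like that of *Ephb4*, by the Euclidean distance of gene-centred log2 CPM among the 9550 genes that averaged 10 CPM or more, were *Bmp2* (distance 0.0227), *Ptms* (0.0257) and *Ubald2* (0.0262). *Bmp2*, a bone morphogenetic protein that LSECs secrete, had 260 and 257 CPM in NC and 186 and 178 CPM in siAirn. For *Efnb2* they were *Lemd3* (0.0348) and *Cenpc1* (0.0378), which encode proteins of the inner nuclear membrane and the centromere, and a gene listed without a symbol as BGIG10090_47930 (0.0490). *Lemd3* had 19.1 and 17.1 CPM in NC and 23.7 and 25.7 CPM in siAirn. With 4 libraries in 2 groups, a small distance mostly says that a gene has the same difference between groups.

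*Ephb4* and *Efnb2* kept their direction and passed under each of 10 other analyses with all 4 libraries. Log2 fold changes ran from -0.53 to -0.44 with adjusted p of 6.545e-09 to 0.0183 for *Ephb4*, and from 0.42 to 0.48 with adjusted p of 4.997e-05 to 0.0406 for *Efnb2*. *Epha4* ran from 0.46 to 0.88 and *Efnb1* from -0.18 to -0.04, with none of these analyses calling either. *Epha2* took both signs over these analyses, and *Ephb2* and *Ephb3* did so once fits with 1 library left out were included.

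**Figure D5:**
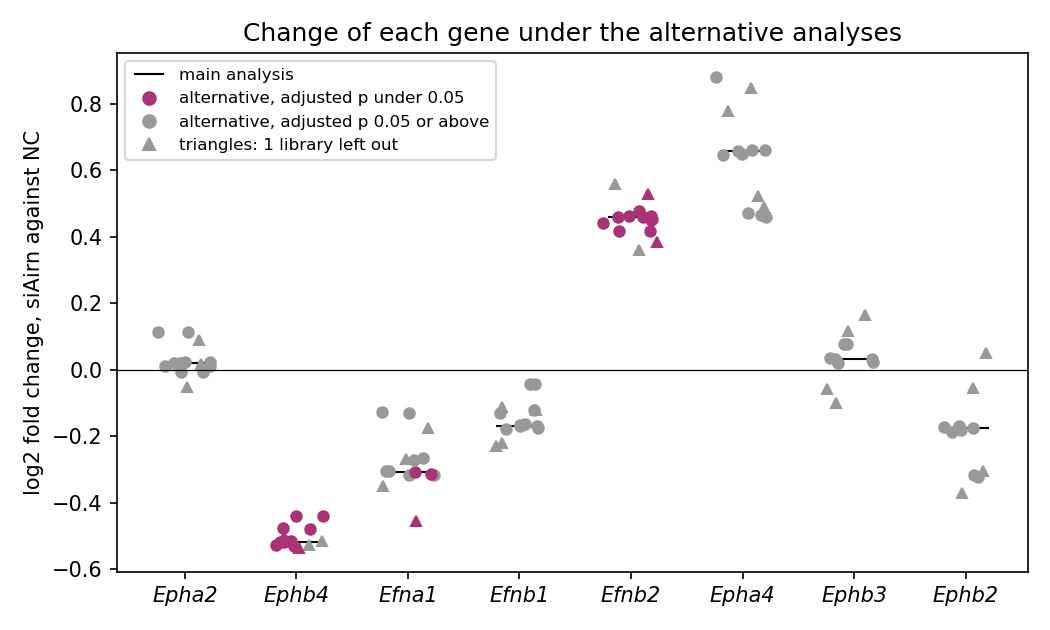
Log2 fold change of the 8 genes under the main analysis (line), other analyses with all 4 libraries (circles) and fits with 1 library left out (triangles); purple marks an adjusted p under 0.05. *Ephb4* lies between -0.54 and -0.44 and *Efnb2* between 0.36 and 0.56, and the points of *Epha4* and *Ephb2* scatter most.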

How the data were processed

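Estimated counts, which the authors deposited unnormalized per gene and library (76.5% to 76.8% of them whole), were rounded. The second deposited value, without a named unit, was read as FPKM computed by the authors, since it scales with count, length and library total. The submitters' processing notes list BWA, Bowtie2 and RSEM without roles and the human build hg19; the annotation, the filters and the use of strand are not given in the sources used here. Reads were single-end, 50 bases.

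Counts were analysed in R 4.3.3 with edgeR 4.0.16 (TMM factors 0.985 to 1.02, filterByExpr, quasi-likelihood test, no covariate, Benjamini-Hochberg adjustment over 13628 genes), and CPM use TMM-scaled totals. The study's threshold was applied to this test's unadjusted p, because the methods name a test for comparisons of 2 groups in general but none for the RNA-seq. Intervals of count ratios are exact binomial, cover counting error only and use TMM-scaled totals. Alternatives were DESeq2 1.42.0, upper-quartile factors, no filter beyond 1 count, at least 10 counts in every library, the likelihood-ratio test, limma 3.58.1 on log2(FPKM + 1) and log2(FPKM + 0.1) for genes with a mean of at least 1 FPKM, a replicate block, splines with 5 degrees of freedom on GC content and length (12948 genes), stricter thresholds and leaving out each library. Scripts were tested on simulated data. The 8 genes, the gene lists and the alternatives were chosen with earlier results of these data known. Named were the 8 genes, tested family members, up to 5 called genes with the largest changes and the 2 with the most counts of each pathway or vessel list, and the 3 genes most like *Ephb4* and *Efnb2*; marker lists are given mostly as counts. One gene of the forward signalling list that the rule covers is not reported here, so those named from it are not all that the rule selects.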

Additional observations from a re-analysis of the deposited data

How the results depend on the processing

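An adjusted p under 0.05 was found for 2 of the 8 genes in the main analysis and in the alternatives with all 4 libraries, except for 3 with the likelihood-ratio test and with the replicate block, where *Efna1* was added (adjusted p = 0.00405 with the replicate block); the count was 0 without NC replicate 1 or NC replicate 2, 3 without siAirn replicate 1 and 2 without siAirn replicate 2. Past the study's threshold were 2 of the 8, but 1 with DESeq2, with limma on log2(FPKM + 0.1) and at an unadjusted p under 0.01, 0 with limma on log2(FPKM + 1), at a fold change over 2 and the GC content and length correction (with or without the replicate block), 1 without NC replicate 2 or siAirn replicate 2, and 3 without siAirn replicate 1. Of the other family genes 0 passed, but 1 with the likelihood-ratio test, 2 with the replicate block (also with the GC content and length correction) and 2 without siAirn replicate 1 (0 in the other fits with 1 library left out). Over all genes 2294 passed; the replicate block gave 4841, the GC content and length correction 1037 and both together 4061, and fits without NC replicate 1, NC replicate 2, siAirn replicate 1 and siAirn replicate 2 gave 40, 0, 2410 and 1446. Past the study's threshold were 1358 genes, but 783 with limma on log2(FPKM + 1) and 256 at a fold change over 2; with 1 library left out there were 1134 to 1768. The forward signalling list went from 4 calls to 12 with the replicate block and 11 with the block and the correction, the arterial list from 2 to 5 and 3, the venous list from 3 to 4 and 5, and the reverse list from 5 to 6 with either. The cause of these differences was not tested.

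Single log2 fold changes turned sign for *Epha2* with limma (-0.00628 with a pseudocount of 1, -0.00633 with 0.1) and in fits with 1 library left out (-0.0520 to 0.0913), and in such fits for *Ephb2* (-0.37 to 0.0521), *Ephb3* (-0.10 to 0.17) and *Efnb3* (-0.47 to 0.12). Over the 15 family genes, 121 of the other values with all 4 libraries kept direction and side of the threshold, 7 crossed to a call and 2 turned sign.

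Replicate numbers are not said to mark a shared animal or day, and with 2 pairs they were not taken as pairing; the differences between replicates 1 and 2 correlated at 0.45 between the groups over 9551 genes. DESeq2 gave no adjusted p for 2907 genes, *Epha4*, *Ephb2* and *Ephb3* among them. A single pair of libraries per group, the unresolved siRNA of each and the level of *Airn* limit each comparison.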
